A study of Homo sapiens with 8 samples.

Results

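S100 proteins and galectins are 2 families of small proteins without enzyme activity, and 10 of their genes were followed here in liver cancer cells: S100A4, S100A6, S100A9, S100A10, S100A11, S100A14, LGALS1, LGALS3, LGALS4 and LGALS8. The genes were chosen by symbol, with the earlier values of these arrays in both comparisons known, and every probe set annotated to 1 of these symbols alone was taken. That gave 23 probe sets of 49293 that were not array controls, for 10 of the 18132 genes with a probe set of their own. Because which measured values guided the choice is not recorded, the values of these 10 genes in both comparisons are given as a description, with standard errors and no p-values.

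The measurements came from 3 groups of cultures, with 2 biological replicates each: Hep3B kept with DMSO, Huh7.5.1 kept with DMSO, and Huh7.5.1 kept with 10 μM CU27, all for 48 h. Hep3B and Huh7.5.1 are established lines of human hepatocellular carcinoma, and Huh7.5.1 descends from the line Huh7. CU27 is known here by its code name, and DMSO, the solvent, was the control in both lines. Each line is a single culture model, so a difference between them is a difference between these lines. Total RNA was hybridised to 1 Affymetrix 3′ expression array per culture, and the values are log2 signals. Values for CU27 in Hep3B were left out of the main fit, because they were not independent of the DMSO values of that line. At each probe set they followed exactly, within 1e-06, from a linear combination of those DMSO values. The relation does not show which of the Hep3B columns were measured, so the Hep3B DMSO values are taken as labelled. The labels do not say whether replicates were separate passages or dishes, so errors measure the spread between these arrays.

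S100 proteins are calcium-binding EF-hand proteins that mostly act as dimers, changing shape when calcium binds and then docking on target proteins. S100A10 is the exception that does not respond to calcium and pairs with annexin A2 at the plasma membrane, whereas S100A9 is a partner of S100A8 and is abundant in neutrophils and monocytes. Galectins are lectins that bind β-galactosides on glycoproteins, inside and outside the cell. LGALS1 encodes a prototype galectin with a single carbohydrate-recognition domain that dimerises, LGALS3 the chimera-type galectin with a long amino-terminal tail, and LGALS4 and LGALS8 tandem-repeat galectins with a pair of such domains. In the liver, galectin-3 is known from macrophages, injured tissue and tumours, and normal hepatocytes have little of it.

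The lines differed most at 5 of these genes, in both directions. S100A10, S100A11 and LGALS3 were more than 10-fold higher in Huh7.5.1, and S100A6 3.04-fold higher, while S100A14 and LGALS1 were more than 10-fold lower. CU27 in Huh7.5.1 went with smaller differences. LGALS1 was 2.07-fold higher with CU27 (log2 difference 1.05 ± 0.25, SE, n = 2 arrays per group), and LGALS3 was 1.51-fold lower (-0.60 ± 0.20). S100A4, S100A9 and LGALS4 did not reach the floor of log2 6.11, the 50th percentile of all values, as a mean in any group.

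Promoter sequence is shown for the 4 genes that had the largest differences between the lines among those matched in the RefSeq promoter table. Each window holds the 250 bases before the transcription start in GRCh38.p14, written 5′ to 3′ on the gene's own strand. Capitals mark matches, on either strand, to a GC box (GGGCGG) or to a loose form of the metal response core (TGCNCNC).
S100A10 promoter, chr1:151993860-151994109, minus strand: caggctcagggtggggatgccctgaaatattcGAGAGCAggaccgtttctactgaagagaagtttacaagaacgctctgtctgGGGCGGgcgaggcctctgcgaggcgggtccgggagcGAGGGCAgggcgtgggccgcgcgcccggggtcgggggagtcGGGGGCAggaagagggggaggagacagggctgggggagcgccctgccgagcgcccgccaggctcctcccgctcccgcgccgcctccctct
S100A11 promoter, chr1:152037005-152037254, minus strand: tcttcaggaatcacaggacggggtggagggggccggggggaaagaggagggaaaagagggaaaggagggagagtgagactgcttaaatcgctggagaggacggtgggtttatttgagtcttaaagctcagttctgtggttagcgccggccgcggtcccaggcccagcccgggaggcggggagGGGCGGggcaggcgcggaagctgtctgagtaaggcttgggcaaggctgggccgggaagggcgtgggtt
S100A14 promoter, chr1:153616326-153616575, minus strand: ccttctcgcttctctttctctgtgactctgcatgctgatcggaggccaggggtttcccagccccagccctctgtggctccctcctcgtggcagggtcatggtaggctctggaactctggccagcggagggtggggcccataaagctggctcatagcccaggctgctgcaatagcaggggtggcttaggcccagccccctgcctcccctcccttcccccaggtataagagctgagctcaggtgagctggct
LGALS3 promoter, chr14:55129002-55129251, plus strand: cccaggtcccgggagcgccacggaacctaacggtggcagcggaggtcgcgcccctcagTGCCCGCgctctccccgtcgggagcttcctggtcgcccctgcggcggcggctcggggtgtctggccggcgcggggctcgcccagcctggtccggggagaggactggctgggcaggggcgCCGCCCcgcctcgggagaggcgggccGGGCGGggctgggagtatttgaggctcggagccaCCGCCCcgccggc

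The S100A10 window held 1 GC box, 167 bases before the start, and 3 metal response cores, at 218, 131 and 90 bases. S100A11 had 1 GC box at 68 bases, and LGALS3 had 3, at 73, 47 and 13 bases, with 1 metal response core at 192 bases. The S100A14 window, from the gene lower in Huh7.5.1, held no match to any of the 5 motifs searched. Of the 10 genes, 9 were matched, with 11 windows in all because LGALS8 has 3 start sites; LGALS1 is named only. A GC box was found in 6 of these 11 windows, against 42.6% of the 35116 RefSeq promoter windows of the same length. The metal response core was found in 6 of 11, against 49.1%, and the TATA box (TATAAA) in 3 of 11, of S100A4, S100A9 and LGALS8, against 10.7%. For LGALS8 the GC box and the TATA box were each in 1 of its 3 windows. No window of these genes held an AP-1 site (TGANTCA; 6.57% of all windows) or a hypoxia response core (ACGTG; 18.5%). Overlap between motifs was allowed, both strands were searched, and a match describes the letters only.

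In DMSO, S100A10, S100A11 and S100A6 were higher in Huh7.5.1, and S100A14 was lower. S100A10, the annexin A2 partner also called p11, gave log2 signals of 7.98 and 7.74 in Hep3B and 12.31 and 12.48 in Huh7.5.1. The Huh7.5.1 arrays stood far above the Hep3B arrays, with a difference of 4.53 ± 0.12 (SE, n = 2 arrays per group), a 23.2-fold higher signal. Both S100A10 probe sets gave 4.53. Arrays of Huh7.5.1 ran brighter as a whole, with a median difference of 0.22 over all 11383 genes tested, and relative to that shift S100A10 differed by 4.31. Its difference ranked 94th from the top of all genes tested.

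S100A11, a calcium-dependent binder of annexin A1 that is linked to growth control in epithelial cells, read 8.07 and 8.04 in Hep3B and 11.83 and 11.59 in Huh7.5.1. The groups were again far apart, by 3.66 ± 0.15 (12.6-fold; 3.43 relative to the shift). Its only probe set is of a design that can also bind related transcripts. S100A6, or calcyclin, which binds the ubiquitin-ligase partner CACYBP, read 7.83 and 7.94 in Hep3B and 9.05 and 9.94 in Huh7.5.1. Both Huh7.5.1 arrays were above both Hep3B arrays, by 1.60 ± 0.26 on average (3.04-fold; 1.38 relative to the shift). That average depends on the Huh7.5.1 DMSO arrays, which differed from each other by 0.89: it was 2.05 without replicate 1 and 1.16 without replicate 2. Only 0.729% of the genes tested had a wider gap in that group, where the median gap was 0.14.

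S100A14, an epithelial S100 protein, had the opposite order. It read 11.42 and 11.53 in Hep3B, and 6.49 and 8.24 in Huh7.5.1. The Hep3B arrays were high and close together, and the Huh7.5.1 arrays were low and apart. The difference was -4.12 ± 0.46 (17.3-fold lower in Huh7.5.1; -4.34 relative to the shift), 33rd from the bottom of all genes tested. The gap of 1.75 between the Huh7.5.1 DMSO arrays was the 7th largest of 11383 genes in that group. Without replicate 1 the difference was -3.24 and without replicate 2 it was -4.99.

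S100A4 and S100A9 stayed below the floor and entered no test across genes. For S100A4, a protein known for binding non-muscle myosin and for its part in cell motility, the brightest of 3 probe sets read 5.78 and 5.71 in Hep3B and 5.10 and 5.26 in Huh7.5.1. The Huh7.5.1 arrays were lower at all 3 probe sets, by differences from -0.56 to -0.27. Its highest group mean, 6.09 with CU27, lay just under the floor, and the lowest group mean among the genes that passed was 6.34, for S100A14 with CU27. S100A9 read 3.02 and 2.98 in Hep3B and 4.03 and 4.30 in Huh7.5.1, all dim, so no fold is given.

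Among the galectins, LGALS1 and LGALS3 differed between the lines in opposite directions. LGALS1 read 10.94 and 11.29 in Hep3B and 6.45 and 6.35 in Huh7.5.1. The groups were widely separated, by -4.72 ± 0.25 (26.3-fold lower in Huh7.5.1; -4.94 relative to the shift), 18th from the bottom of all genes tested. LGALS3 read 8.06 and 7.98 in Hep3B and 12.27 and 12.66 in Huh7.5.1. Its Huh7.5.1 arrays were both far higher, by 4.45 ± 0.20 (21.8-fold; 4.22 relative to the shift), 100th from the top.

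LGALS8, whose product binds glycans on damaged endosomes and recruits the autophagy receptor CALCOCO2, differed little between the lines. Its brightest probe set read 9.56 and 9.61 in Hep3B and 9.01 and 9.53 in Huh7.5.1, a difference of -0.31 ± 0.18. The Huh7.5.1 arrays were just below the Hep3B arrays, and without Huh7.5.1 DMSO replicate 1 the difference was -0.05, against -0.58 without replicate 2. All 11 LGALS8 probe sets had a lower mean in Huh7.5.1, with differences from -0.50 to -0.03. The groups did not overlap at 5 of them, where 84.8% of all genes tested had no overlap. LGALS4, a galectin of the gut epithelium, read 4.06 and 4.07 in Hep3B and 3.69 and 3.63 in Huh7.5.1, below the floor throughout.

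**Figure D1:**
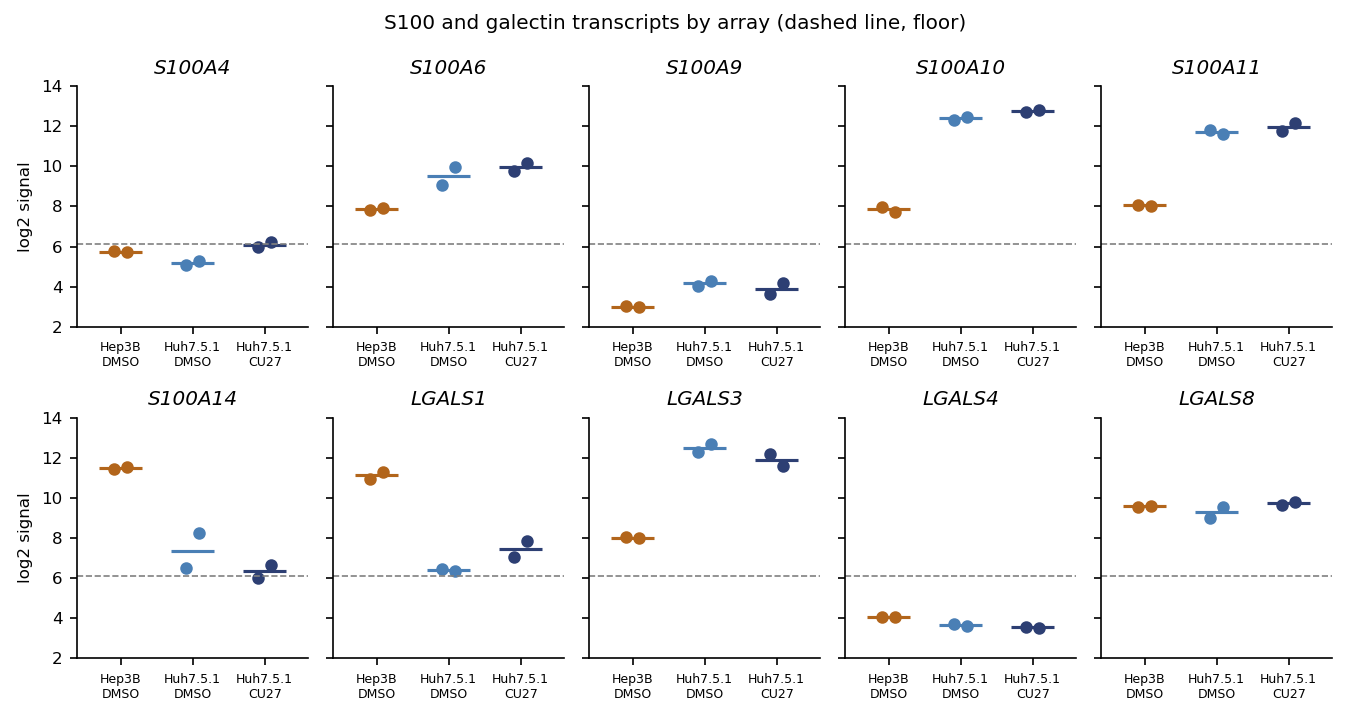
Log2 signal (vertical axis) of the brightest probe set of each of the 10 genes on the 6 arrays, by group; points are arrays, bars are group means and the dashed line is the floor of 6.11. S100A10, S100A11 and LGALS3 are high in both Huh7.5.1 groups, S100A14 and LGALS1 are high in Hep3B, and S100A9 and LGALS4 lie below the floor on every array.

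Of the 7 genes that passed the floor, every group mean was above it, although S100A14 read 6.02 on 1 CU27 array. Between the lines 6 of these 7 genes were past the limma threshold (adjusted p under 0.05), where 64.0% of all genes tested were. Of these 6, 4 were higher and 2 lower, where 41.0% and 22.9% of all genes tested were. Groups did not overlap for 7 of 7, where 84.8% of all genes tested had no overlap, with 4 higher and 3 lower beside 52.9% and 31.9% of all genes. Since the genes were chosen with such values known, nothing is read from these counts. The median difference was 1.60 for the 7 genes and 0.22 for all genes tested. The split of all calls depended on the scaling of the arrays: 64.1% of called genes were higher in Huh7.5.1 as deposited, 36.2% with arrays centred on their medians, which moved the median of all genes to -0.22, and 43.8% after quantile normalization, which moved it to -0.10. The directions given above for the 7 genes were the same under both scalings, with S100A10 at 4.12, S100A11 at 3.24, S100A6 at 1.19, LGALS3 at 4.03, LGALS1 at -5.13 and LGALS8 at -0.73 on centred arrays.

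The second comparison asked which transcripts differed after CU27 in Huh7.5.1. LGALS1 read 6.45 and 6.35 with DMSO and 7.04 and 7.86 with CU27. Both CU27 arrays were above both DMSO arrays, by 1.05 ± 0.25 on average, and both remained far below the Hep3B arrays at 10.94 and 11.29. The CU27 replicates differed by 0.82, and the difference was 1.46 without CU27 replicate 1 and 0.64 without replicate 2. In order of level, LGALS1 was highest in Hep3B DMSO, then Huh7.5.1 CU27, then Huh7.5.1 DMSO, with no overlap between neighbours.

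LGALS3 read 12.27 and 12.66 with DMSO and 12.16 and 11.58 with CU27. The CU27 arrays were lower, though the nearest pair lay close, and the difference of -0.60 ± 0.20 became -0.89 without CU27 replicate 1 and -0.31 without replicate 2. Its order was Huh7.5.1 DMSO, Huh7.5.1 CU27 and then Hep3B, with no overlap. LGALS8 read 9.01 and 9.53 with DMSO and 9.64 and 9.81 with CU27 at its brightest probe set. The difference was 0.45 ± 0.18 (1.37-fold higher), and it was 0.19 without DMSO replicate 1 and 0.72 without replicate 2. Across its 11 probe sets the CU27 difference ran from -0.14 to 0.60, with 10 above 0 and 6 whose groups did not overlap. Of all genes tested, 63.8% had no overlap. The 11 probe sets read the same RNA on the same arrays, so they are not separate evidence. At all 11 probe sets DMSO replicate 2 was above DMSO replicate 1, by 0.19 to 0.68. LGALS4 read 3.69 and 3.63 with DMSO and 3.58 and 3.50 with CU27, all below the floor.

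The S100 genes gave smaller or less even differences with CU27. S100A10 read 12.31 and 12.48 with DMSO and 12.72 and 12.82 with CU27. Both CU27 arrays were higher, by 0.37 ± 0.12 at the brighter probe set and 0.28 at the other. S100A11 read 11.83 and 11.59 with DMSO and 11.78 and 12.18 with CU27, so the groups overlapped. Its difference of 0.26 ± 0.15 was 0.46 without CU27 replicate 1 and 0.06 without replicate 2.

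S100A6 read 9.05 and 9.94 with DMSO and 9.77 and 10.14 with CU27, again overlapping. The difference of 0.46 ± 0.26 was 0.02 without DMSO replicate 1 and 0.90 without replicate 2. S100A14 read 6.49 and 8.24 with DMSO and 6.02 and 6.66 with CU27, and the lower DMSO array lay between the CU27 arrays. Its difference of -1.03 ± 0.46 was -1.90 without DMSO replicate 1 and -0.15 without replicate 2. For S100A6, S100A14 and LGALS8 the size of the CU27 difference therefore depended on which DMSO array was kept, and in each of these genes replicate 2 was the higher DMSO array.

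S100A4 was higher with CU27 at all 3 of its probe sets. The brightest read 5.10 and 5.26 with DMSO and 5.96 and 6.21 with CU27, a difference of 0.90 ± 0.17, and the others gave 0.99 ± 0.18 and 0.78 ± 0.17. The CU27 arrays were also above both Hep3B arrays at each probe set. Only 1 of the 6 arrays was over the floor at any S100A4 probe set, so these differences lie in a range where signal over background is small and no fold is given. S100A9 read 4.03 and 4.30 with DMSO and 3.62 and 4.18 with CU27, overlapping and below the floor.

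**Figure D2:**
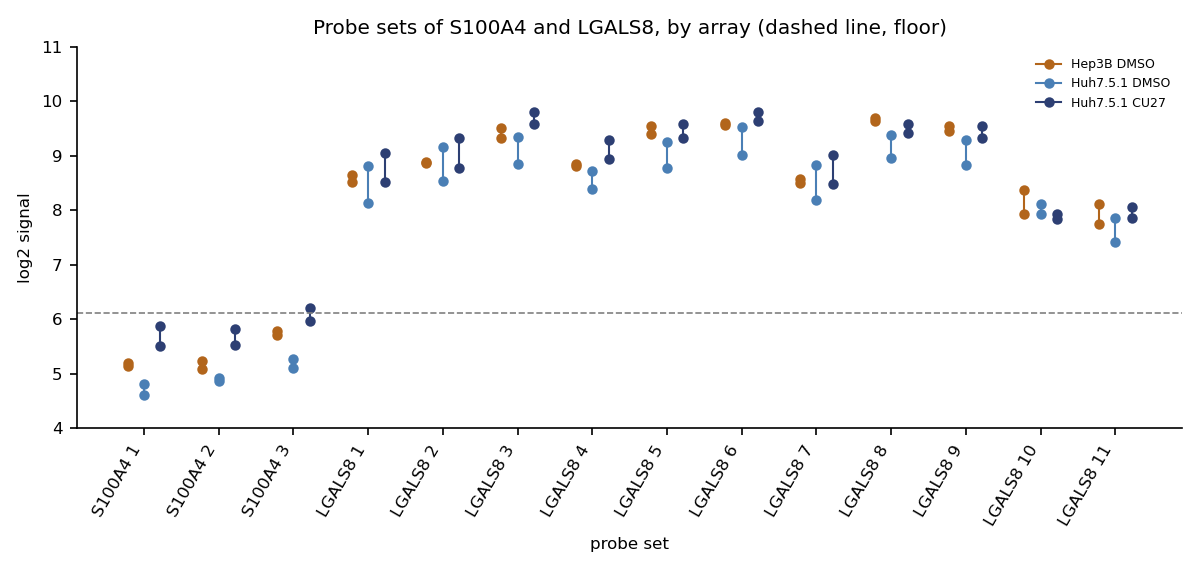
Log2 signal (vertical axis) at the 3 probe sets of S100A4 and the 11 of LGALS8 (horizontal axis), by group; points are arrays, lines join the replicates of a group and the dashed line is the floor of 6.11. CU27 arrays are above DMSO arrays at all 3 S100A4 probe sets, where only 1 array passes the floor, and at 6 of 11 LGALS8 probe sets. The CU27 arrays were above the DMSO arrays in 32.9% of all genes tested.

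With CU27, 1 of the 7 genes that passed the floor was past the limma threshold, LGALS1, where 24.7% of all genes tested were, 12.6% higher and 12.1% lower. Groups did not overlap for 4 of 7 (S100A10, LGALS1 and LGALS8 higher, LGALS3 lower), where 63.8% of all genes tested had no overlap, 32.9% higher and 31.0% lower. The LGALS1 call was lost when either DMSO array, or CU27 replicate 2, was left out. Without DMSO replicate 1 the call was S100A14, without DMSO replicate 2 the calls were S100A6 and LGALS8, and without CU27 replicate 2 there were 0 of 7. Nothing is read from these counts either. The median difference was 0.37 for the 7 genes and 0.02 for all genes tested. The comparisons share the Huh7.5.1 DMSO arrays, so a high or low array there enters both.

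The whole families were taken by name, and the 10 genes described above are among them, so the other genes are counted first. All 20 S100 genes listed had a probe set of their own, and 5 of the 14 outside the 10 genes were tested. Between the lines 2 of these 5 were higher in Huh7.5.1 and 1 lower (3 of 5 called by limma at adjusted p under 0.05, where 64.0% of all genes tested were), with a median difference of 0.37. With CU27 1 was higher and 1 lower (2 of 5, where 24.7% of all genes were), with a median of 0.15. Of 16 galectin genes listed 11 had a probe set of their own, and 4 of those outside the 10 genes were tested. Between the lines 1 was higher and 1 lower (2 of 4; median -0.11), and with CU27 also 1 was higher and 1 lower (2 of 4; median 0.09). With the 10 genes counted in, 9 S100 genes and 7 galectins were tested. The S100 calls were then 5 higher and 2 lower between the lines (77.8%) and 1 higher and 1 lower with CU27 (22.2%), and the galectin calls 2 and 2 (57.1%) and 2 and 1 (42.9%), counts that include genes chosen with their values known. The split between the lines depended on the scaling: as deposited 7 genes of both families were higher and 4 lower of 16 tested, on centred arrays 7 and 8 of 15, and after quantile normalization 7 and 7 of 15, with LGALS8 among those called under both scalings. Of all genes tested, 2648 were called higher and 4659 lower of 11418 on centred arrays. After quantile normalization 3118 were higher and 4006 lower of 11420. S100A1, S100A3, LGALS2 and LGALS14 each reached the floor only through the group in which the gene was highest. A difference from the other groups was therefore built into their being tested. S100A1 only just reached the floor, with a mean of 6.13 with CU27.

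S100P, a calcium-binding protein known from pancreatic and other carcinomas, read 7.68 and 7.44 in Hep3B, 13.96 and 13.94 in Huh7.5.1 with DMSO and 13.63 and 13.48 with CU27. It was higher in Huh7.5.1 by 6.39 ± 0.11 (limma, adjusted p = 3.01e-09). With CU27 it fell by 0.39 on the log2 scale (SE 0.11; limma, adjusted p = 0.0289), a call lost without Huh7.5.1 DMSO replicate 1 (adjusted p = 0.137), DMSO replicate 2 (0.144) or CU27 replicate 2 (0.141) and without the intensity trend (0.0824). S100A16 read 10.47 and 10.47 in Hep3B and 7.25 and 7.27 in Huh7.5.1, lower by 9.22-fold (-3.20 ± 0.14; limma, adjusted p = 3.09e-07), like its neighbour S100A14. S100A3 read 4.69 and 4.69 with DMSO and 6.11 and 6.84 with CU27. The CU27 arrays were higher by 1.79 ± 0.24, at least 1.29-fold since the DMSO mean was below the floor, and Hep3B was lower still, at 3.34 and 3.43.

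LGALS2, a prototype galectin of the digestive tract, read 3.43 and 3.71 in Hep3B, a mean of 7.43 in Huh7.5.1 with DMSO (lower array 7.36) and 5.83 and 5.65 with CU27. It was at least 2.5-fold higher in Huh7.5.1 than in Hep3B (3.86 ± 0.18). With CU27 it fell to below the floor, at least 2.5-fold (-1.69 ± 0.18). Huh7.5.1 with DMSO, the only group over the floor, entered both differences, so no p-value is given. LGALS14, otherwise a placental galectin, read 8.02 and 8.50 in Hep3B, 4.61 and 4.58 in Huh7.5.1 with DMSO and 5.72 and 5.32 with CU27. Its signal was at least 4.44-fold lower in Huh7.5.1 (-3.66 ± 0.21). Hep3B was the only group over the floor, so no p-value is given for that difference. With CU27 it read higher by 0.92 ± 0.21, with both means below the floor, and its call was lost when either DMSO array, or CU27 replicate 1, was left out. In direction, LGALS14 was placed as LGALS1 was, and LGALS2 as LGALS3 was, in both comparisons. LGALS9 and LGALSL, the other tested galectins outside the 10 genes, differed as deposited by no more than 0.23 in size in either comparison. They were not called (limma, adjusted p = 0.288 or more), although a second LGALSL probe set gave 0.91 with CU27. Relative to the shift between the lines, LGALS9 differed by -0.26 and LGALSL by -0.41. On centred arrays all 15 family genes that were tested were called between the lines.

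**Figure D3:**
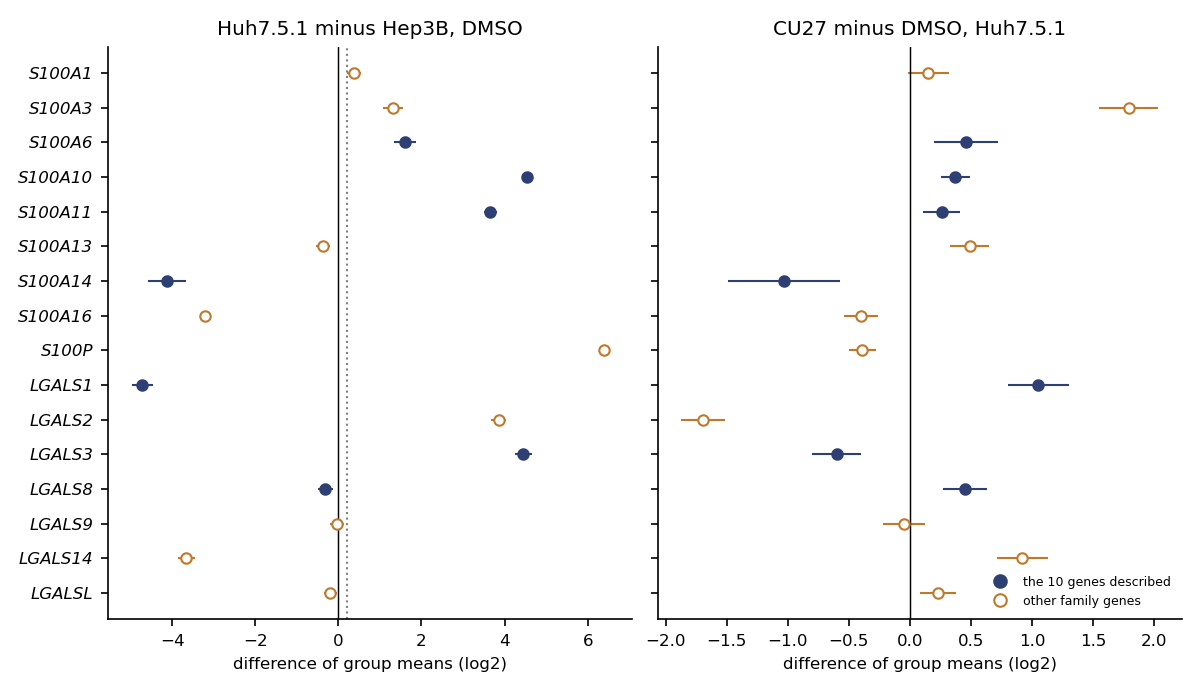
Differences of group means on the log2 scale (horizontal axes) for the 16 tested genes of both families, with standard errors as bars; filled points are the genes described first and open points the other family genes, the left panel compares the lines in DMSO and the right panel CU27 with DMSO in Huh7.5.1. The dotted line in the left panel is the median of all genes tested, 0.22; S100P lies highest there at 6.39 and LGALS1 lowest at -4.72.

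Most S100 genes lie together on chromosome 1, and neighbours there did not share a direction throughout. RefSeq places 16 of the 20 listed genes on this chromosome. S100A10 and S100A11 adjoin each other, 47 other coding genes separate them from S100A9, and the remaining genes from S100A9 to S100A1 follow with 0 other coding genes between them. S100A10 and S100A11, the adjoining pair, were both higher in Huh7.5.1, by 4.53 and 3.66. S100A16 and S100A14, also adjacent, were both lower, by -3.20 and -4.12. S100A13, next in order, differed by -0.37 ± 0.16 (-0.60 relative to the shift). S100A1 differed by 0.37 ± 0.17, with both means below the floor, at 5.62 in Hep3B and 5.99 in Huh7.5.1. S100A6, S100A5 and S100A4 stand side by side, with S100A6 above the floor in every group and the other pair below it as group means.

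**Figure D4:**
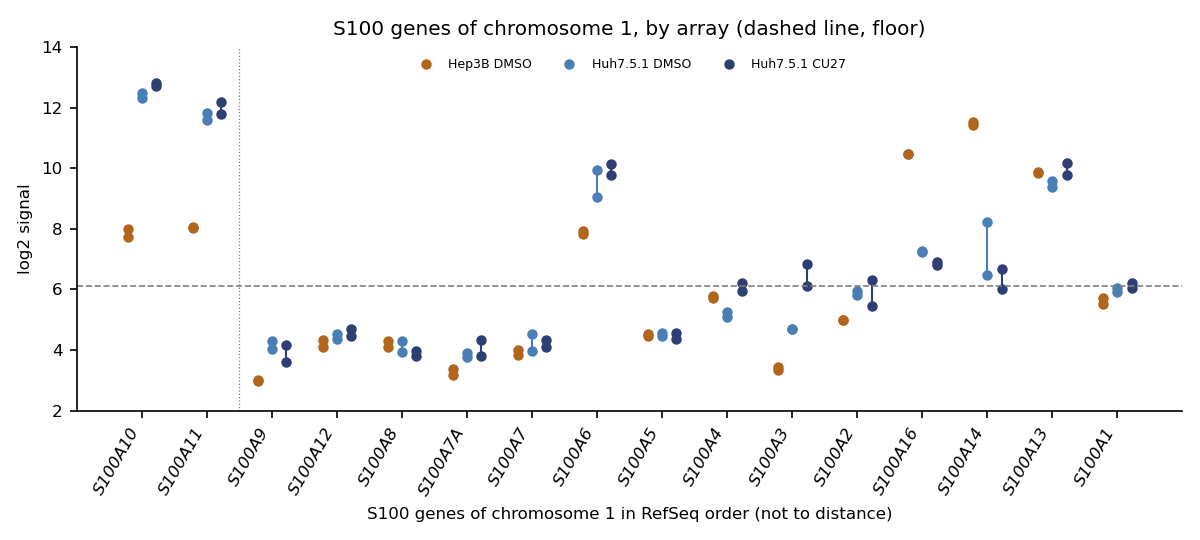
Log2 signal (vertical axis) of the 16 S100 genes of chromosome 1 in their RefSeq order, not to distance (horizontal axis); points are arrays, lines join replicates, the dashed line is the floor and the dotted line marks the stretch of 47 other coding genes. Hep3B is the low group at S100A10 and S100A11 and the high group at S100A16 and S100A14.

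Proteins that S100 members dock on were examined as a list of 25 genes on the array, of which 18 were tested. Between the lines 11 were higher in Huh7.5.1 and 3 lower (77.8% called, against 64.0% of all genes), with a median difference of 0.57. The higher genes include ANXA1 and ANXA6, which were over the floor in Huh7.5.1 only. A difference between the lines was built into their being tested. ANXA2, the partner of S100A10, read 12.31 and 12.43 in Hep3B and 12.69 and 12.75 in Huh7.5.1. It was higher by 0.35 ± 0.08 (limma, adjusted p = 0.00344), but by only 0.12 relative to the shift, and on centred arrays it differed by -0.07, where the call was lost (adjusted p = 0.499). AHNAK, a large scaffold that binds the S100A10 and annexin A2 complex, was higher by 0.39 ± 0.11 (limma, adjusted p = 0.0122) as deposited and differed by -0.03 on centred arrays, so its direction also rests on the scaling. Other probe sets gave larger values for both partners. The 6 probe sets of ANXA2 ran from 0.31 to 1.12, with 0.59 for their mean and 0.82 without probe sets prone to cross-hybridisation, and the second AHNAK probe set gave 0.52.

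ANXA1, a membrane-binding annexin that S100A11 binds, read 4.68 and 3.94 in Hep3B and 10.75 and 11.31 in Huh7.5.1. It was at least 30.3-fold higher in Huh7.5.1 (6.72 ± 0.29), with Hep3B below the floor, and its 5 probe sets ranged from 1.60 to 7.24. CACYBP, the S100A6 partner, was lower in Huh7.5.1 by -0.99 ± 0.15 (limma, adjusted p = 0.000373) at its brightest probe set, with others up to 0.53. SUGT1, a co-chaperone that S100A6 also binds, was higher by 2.30 ± 0.15 (limma, adjusted p = 3.01e-06). MYH9, the non-muscle myosin heavy chain that S100A4 binds, was higher by 1.91 ± 0.12 (limma, adjusted p = 2.99e-06). The receptors BSG and AGER were higher by 1.30 ± 0.16 (limma, adjusted p = 0.000111) and 0.74 ± 0.17 (adjusted p = 0.0039). The AGER call was lost on centred arrays (adjusted p = 0.12) and after quantile normalization (0.117), and its probe sets ran from -0.99 to 0.74.

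With CU27, 5 of the 18 S100 partners rose and 0 fell (27.8% called, against 24.7% of all genes), with a median of 0.26. MYH9 rose by 0.71 ± 0.12 (limma, adjusted p = 0.00512) from 10.52 and 10.55 to 11.13 and 11.34. ANXA11, which S100A6 binds, rose by 0.59 ± 0.11 (limma, adjusted p = 0.00758). ANXA6 rose by 0.95 ± 0.20 (limma, adjusted p = 0.0108), a call lost without DMSO replicate 2 (0.0886) or CU27 replicate 2 (0.0539). AHNAK rose by 0.53 ± 0.11 (limma, adjusted p = 0.00915) at its brighter probe set, but its other probe set gave -0.73, the mean of both gave -0.10, and the call was lost without DMSO replicate 2 (0.0734). PLAUR, the urokinase receptor, rose by 0.68 ± 0.20 (limma, adjusted p = 0.0401), a call lost in 7 of 16 alternative settings (adjusted p from 0.0158 to 0.216). ANXA2 (0.18 ± 0.08; limma, adjusted p = 0.119), CACYBP (0.29 ± 0.15; 0.183) and AGER (0.06 ± 0.17; 0.835) were not called.

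The galectin list held glycoprotein ligands, enzymes that build the N-glycan branches galectins bind, and partners in the response to membrane damage, with 23 genes on the array and 21 tested. Between the lines 9 were higher in Huh7.5.1 and 8 lower (81.0% called, against 64.0% of all genes), with a median of -0.11. The higher genes include CD44 and GAL3ST2, which were over the floor in Huh7.5.1 only, so a difference was built into their being tested. LGALS3BP, a secreted glycoprotein ligand of galectins, read 8.73 and 9.33 in Hep3B and 6.94 and 6.97 in Huh7.5.1, 4.21-fold lower (-2.07 ± 0.21; limma, adjusted p = 3.43e-05), which is opposite in direction to LGALS3. CD44, a hyaluronan receptor that carries galectin-binding glycans, was at least 1.19-fold higher in Huh7.5.1 (2.70 ± 0.23), with Hep3B below the floor. MAN2A1, a mannosidase that trims N-glycans in the Golgi, was higher by 1.34 ± 0.16 (limma, adjusted p = 9.06e-05), and TAX1BP1, an autophagy receptor, by 1.22 ± 0.15 (adjusted p = 0.000113). LAMP1, a lysosomal glycoprotein, was lower by -1.28 ± 0.09 (limma, adjusted p = 4.91e-06) at its brightest probe set, but its 3 probe sets reached 0.99, their mean gave -0.40 with adjusted p = 0.0741, and its direction turned to 0.99 when probe sets prone to cross-hybridisation were left out.

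With CU27, 3 genes of the galectin list rose and 3 fell (28.6% called, against 24.7% of all genes), with a median of 0.02. CD44 read 6.72 and 5.99 with DMSO and 8.25 and 8.31 with CU27, a rise of 1.93 ± 0.23 (limma, adjusted p = 0.0013), and its 10 probe sets gave 0.82 to 2.83. MGAT4B, which adds an N-glycan branch, rose by 0.88 ± 0.14 (limma, adjusted p = 0.00349). MGAT2, which starts another branch, fell by 0.67 on the log2 scale (SE 0.14; limma, adjusted p = 0.00866), a call lost without DMSO replicate 2 (0.077). ST6GAL1, whose α2,6-sialic acid caps block many galectins from binding, fell by 0.92 on the log2 scale (SE 0.21; limma, adjusted p = 0.0138), a call lost without DMSO replicate 1 (0.0752) or DMSO replicate 2 (0.0582). TFRC, the transferrin receptor, rose by 0.36 ± 0.10 (limma, adjusted p = 0.0339), a call lost in 9 of 16 alternative settings (adjusted p from 0.0126 to 0.21). LGALS3BP was not called (0.10 ± 0.21; limma, adjusted p = 0.775).

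Genes outside the families with the most similar pattern were found for the S100 gene and the galectin that, among the 10 genes, had the widest range of group means, S100A14 (5.14) and LGALS1 (4.72). Likeness was the root mean square difference over the 6 arrays after each gene was centred on its own mean, a description that carries no test. Nearest to S100A14 were TMEM178A at 0.31, ESRP1 at 0.40, MREG at 0.53 and DYNLT3 at 0.54. ESRP1 encodes an epithelial splicing regulator, and its group means were 10.40 in Hep3B DMSO, 5.72 in Huh7.5.1 DMSO and 5.11 in Huh7.5.1 CU27. Nearest to LGALS1 were DEFB1, an epithelial defensin, at 0.24, UBE2E2, a ubiquitin-conjugating enzyme, at 0.26, CDH6, a cadherin, at 0.30 and VEGFC, a lymphatic growth factor, at 0.42. All 8 of these genes were over the floor in Hep3B and below it in both Huh7.5.1 groups. Their CU27 differences are therefore between means below the floor. Those near S100A14 ran from -1.17 ± 0.31 (TMEM178A) to -0.14 ± 0.31 (DYNLT3). Those near LGALS1 ran from 0.44 ± 0.21 (CDH6) to 0.77 ± 0.27 (DEFB1). The rule looked for such a likeness, so nothing is read from the signs.

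The Hep3B arrays differed from the Huh7.5.1 arrays in ways that move with every difference between the lines. Array medians were 5.82 to 5.85 in Hep3B and 6.23 to 6.27 in Huh7.5.1. The signal of ACTB 3′ probes over 5′ probes, a sign of RNA integrity and labelling, was 1.60 to 2.28 log2 units in Hep3B and 0.94 to 1.21 in Huh7.5.1, and that of GAPDH 0.32 to 0.43 and 0.05 to 0.14. The part of these in the differences was not tested. Hepatocyte markers were present in all groups, with 8 of 8 measured genes over the floor, and their summed linear signal was 62948 to 67900 in Hep3B, 87797 to 91685 in Huh7.5.1 with DMSO and 59695 to 76003 with CU27. With CU27, 3 of the 8 were called lower and 0 higher, where 12.1% and 12.6% of all genes tested were. The median difference of the 8 was -0.54. APOB differed by -1.28 ± 0.15 (limma, adjusted p = 0.00126), TTR by -0.94 ± 0.15 (0.00339) and SERPINA1 by -0.66 ± 0.08 (0.00126). Myeloid cells are known to be rich in S100A9 and LGALS3. Of 10 myeloid markers 6 were over the floor in Hep3B and 4 in each Huh7.5.1 group, and their summed linear signal was 772 to 843 in Hep3B, 4094 to 4191 in Huh7.5.1 with DMSO and 2545 to 3613 with CU27. The defining leukocyte marker PTPRC lay between 2.76 and 3.55 on every array, far below the floor. LYZ read 7.36 to 8.09 in Hep3B and 10.57 to 11.86 in Huh7.5.1, where it was the brightest of the 10 and weighed most in the sums. Of 6 tested between the lines, LYZ was called higher in Huh7.5.1, and CD14 (-1.89 ± 0.18) and FCER1G (-1.22 ± 0.18) lower. In all, 64.0% of genes tested were called there, and CD14 and FCER1G were over the floor in Hep3B only. With CU27, CD68 rose by 2.25 ± 0.20 (limma, adjusted p = 0.000394). FCER1G was also called higher and CD14 lower, where 24.7% of all genes were called. Of 5 epithelial markers, all were over the floor in Hep3B and 4 in each Huh7.5.1 group, with summed signals of 17366 to 20050 in Hep3B, 17142 to 19630 in Huh7.5.1 with DMSO and 19073 to 21497 with CU27. The exception was KRT19, a keratin, which like S100A14 was high in Hep3B, at 11.53 and 11.79. In Huh7.5.1 with DMSO it was low, at 4.95 and 5.28 (at least 46.8-fold lower). Fibroblasts are known to be rich in LGALS1, and their markers gave a summed signal of 269 to 280 in Hep3B, 240 to 274 in Huh7.5.1 with DMSO and 242 to 245 with CU27, with 2 of 7 over the floor in Hep3B and 1 of 7 in Huh7.5.1. Endothelial markers over the floor numbered 0 of 5 in Hep3B, 1 of 5 in Huh7.5.1 with DMSO and 0 of 5 with CU27. The part of other cell types was not tested beyond these levels, and a bulk array cannot tell fewer cells of a kind from less RNA per cell.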

How the data were processed

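The 6 arrays used came from 3 groups of 2 (Hep3B DMSO, Huh7.5.1 DMSO, Huh7.5.1 CU27), grouped by the labels. The deposited value table of 49395 probe sets, 102 of them controls, was used as the authors deposited it. Its values were taken as log2 signal from their range, since the deposited table does not state the scale. MAS5, without a version, is named per the submitters' processing notes; how arrays were scaled to each other, and whether they were centred, stays unknown. Direction is that of signal. Scanner files were not analysed here. The genes and lists were chosen with earlier results of these data known.

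The platform annotation gave 44988 probe sets 1 symbol, 1832 several and 2473 none. For a gene with several probe sets the one of highest mean signal stood for it, and a gene was tested where a group mean reached 6.11, the 50th percentile; 11383 genes were tested and 2809 differed with CU27. Tests were two-sided, from limma 3.58.1 in R 4.3.3 (1 coefficient per group, eBayes with an intensity trend, 3 residual degrees of freedom, prior 5.87), with Benjamini-Hochberg adjustment over all genes tested. An exact permutation test of 2 against 2 arrays cannot go below 0.333, so none was used, and 2 arrays per group limit the precision. A gene over the floor in 1 line only, such as ANXA1, CD44 or KRT19, entered the test through that line. No p-value is given for its difference between the lines. A fold against a mean below the floor is given as at least the fold over the floor. Named beyond the 10 genes were family genes past the test, up to 5 genes of each partner list by smallest p, ANXA2, AHNAK, CACYBP, AGER and LGALS3BP in any case, and the 4 nearest genes of S100A14 and LGALS1. Alternatives changed the scaling, floor, probe set choice, variance prior, arrays fitted and replicates. The counts of alternative settings include a fit of all 8 columns. That fit put back the Hep3B CU27 values, which add no independent measurement. The fitting code was tested on simulated data.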

Additional observations from a re-analysis of the deposited data

How the results depend on the processing

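Of the 10 genes, the 7 tested gave 111 alternative values for CU27 and 104 between the lines. None of these changed sign, and 12 and 15 of them moved by more than the SD of the replicates. Some settings changed only the filter, the variance prior, the replicate block or arrays outside a comparison. These could not change a difference at the same probe set, so the lack of change there was fixed in advance. The count of genes past the limma test with CU27, 2809, lay between 889 and 2957 when 1 array was left out, where leaving out Huh7.5.1 DMSO replicate 1 gave 1629, Huh7.5.1 DMSO replicate 2 gave 889 and Huh7.5.1 CU27 replicate 2 gave 1521. Between the lines that count was 5868 to 7573. The 5 family genes past the CU27 test became 3 to 7 with 1 array left out and 8 after quantile normalization. That count was 10 of 15 in the fit of only the 4 Huh7.5.1 arrays with the replicate block, where 3544 of all 10960 genes tested were called. After quantile normalization 3060 of all 11420 genes tested were called, and in the main fit 2809 of 11383. The fit with the block called 6 of the 7 genes (S100A11 was not called). Without the block, the fit of the same 4 arrays called 2 of the 7, S100A10 and LGALS1, and 2382 of all 10960 genes tested. The main fit, of 6 arrays, called 1 of the 7. These 7 genes were chosen with their values known, so nothing is read from these counts. Between the lines 11 of 16 family genes were past the test, against 15 of 15 on centred arrays and 14 of 15 after quantile normalization. Of all genes tested, 7283 of 11383, 7307 of 11418 and 7124 of 11420 were past it in these settings. Without a filter on low values, which let more family genes be tested, 21 of 31 were, beside 10641 of 18132 of all genes. Signs turned for the CU27 difference of AHNAK (-0.10, mean of all probe sets), ANXA2 (-0.16, without probe sets named _x_at or _s_at), LGALS3BP (-0.02 without Huh7.5.1 CU27 replicate 1, and 0.22 at the highest with 1 array left out) and AGER (-0.07 without CU27 replicate 2, and 0.19 at the highest), and between the lines for ANXA2 (-0.07) and AHNAK (-0.03) on centred arrays and LAMP1 (0.99, without probe sets named _x_at or _s_at). The cause was not tested. Among the other named genes, 30 of 281 CU27 values and 8 of 264 values between the lines lost the call. The DMSO and CU27 replicates of Huh7.5.1 share the numbers 1 and 2, and no label says that a number pairs them; deviations of equal numbers correlated at 0.179 over 11383 genes, and the fit with the replicate block called 3544 genes. No paired analysis was possible between the lines because they share only the number 2. Signal near the floor limits S100A4, S100A9 and LGALS4.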
